A study of Macaca mulatta with 9 samples.

Results

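The genes described here are 37 genes of glucose use and of the response to low oxygen, measured in the whole blood RNA of Macaca mulatta, the rhesus macaque. They were chosen by name: 4 carriers of glucose and lactate, 3 hexokinases, 7 genes of upper and 7 of lower glycolysis, 2 lactate dehydrogenase subunits, 3 bifunctional regulators, 4 enzymes of the pentose phosphate pathway and 7 genes of the hypoxia response. All 37 are rows of the deposited table, which holds 24371 genes. The study concerns extracellular vesicles, small membrane particles shed by cells, from antler blastema progenitor cells, and its title names age-related phenotypes. The 9 animals, labelled wild type, were allotted at random to 3 groups of 3, and each library comes from a different animal. The Evs-ABPC animals received the antler-cell vesicles, the Evs-FBMSC animals received vesicles from a source that the labels give only by that name, and the PBS animals received the saline vehicle. "Old" stands in the descriptions of the PBS samples. Neither dose, schedule nor age is given for any group, and no untreated young group was analysed here.

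Glycolysis splits glucose into pyruvate and yields ATP without oxygen. Lactate dehydrogenase turns pyruvate into lactate, and carriers of the SLC2A and SLC16A families move glucose in and lactate out of cells. The pentose phosphate pathway branches off after the first step and supplies NADPH, which neutrophils use for their oxidative burst and red cells use against oxidants. When oxygen is low, prolyl hydroxylases no longer mark hypoxia-inducible factors for destruction, and these factors raise transcription of many glycolytic genes. Mature red cells live on glycolysis, and neutrophils also rely largely on it.

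Each value is a per-million value on a scale that behaves like TPM, a length-corrected measure with a fixed total in every library. Genes of red cells took 71.3% to 82.9% of that total in Evs-ABPC libraries, 82.9% to 88.0% in Evs-FBMSC libraries and 88.7% to 93.1% in PBS libraries, summed over the 34 of 40 erythroid list genes in the table. Reads outside the 3 main adult globin genes numbered 7.059 to 8.266 M (1 M is 1000000) in Evs-ABPC libraries, 5.339 to 7.146 M in Evs-FBMSC libraries and 3.189 to 5.47 M in PBS libraries. Because the total is fixed, results are given on 2 scales. "As deposited" means the per-million values themselves. "Scaled" means each library divided by its median ratio to all libraries over 13350 genes, a factor of 1.52 to 2.52 in Evs-ABPC, 0.957 to 1.21 in Evs-FBMSC and 0.33 to 0.767 in PBS libraries. Scaling takes out a shift that most genes share. Markers of neutrophils, monocytes, T cells, NK cells, B cells and platelets were all found, with 0 of the marker genes present in the table at 0 in every library. In bulk blood, fewer cells of a type and less RNA per cell cannot be told apart.

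Of the 37 genes, 34 were tested, having a value of 1 or higher in no fewer than 3 libraries. Untested were PKLR (the red cell and liver pyruvate kinase), PFKFB2 (a bifunctional regulator of glycolysis) and ADM (adrenomedullin, a vasodilator peptide). Of those tested, PFKM, ALDOC, EPAS1, VEGFA and PDK1 passed this filter only through the Evs-ABPC libraries, where they were high as deposited. Higher values of these genes there, on either scale, are therefore a description. The highest means over all 9 libraries, in descending order, were those of TALDO1 (255), PGD (159), GAPDH (152), TKT (95.2) and ALDOA (87.5), so 3 of the 5 most abundant transcripts belonged to the pentose phosphate branch. Several genes, among them GAPDH, PGK1, ENO1, LDHA, PKM, ALDOA, TPI1 and PGAM1, have processed pseudogenes, and their values are uncertain to the extent that reads were shared with these copies.

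**Figure D1:**
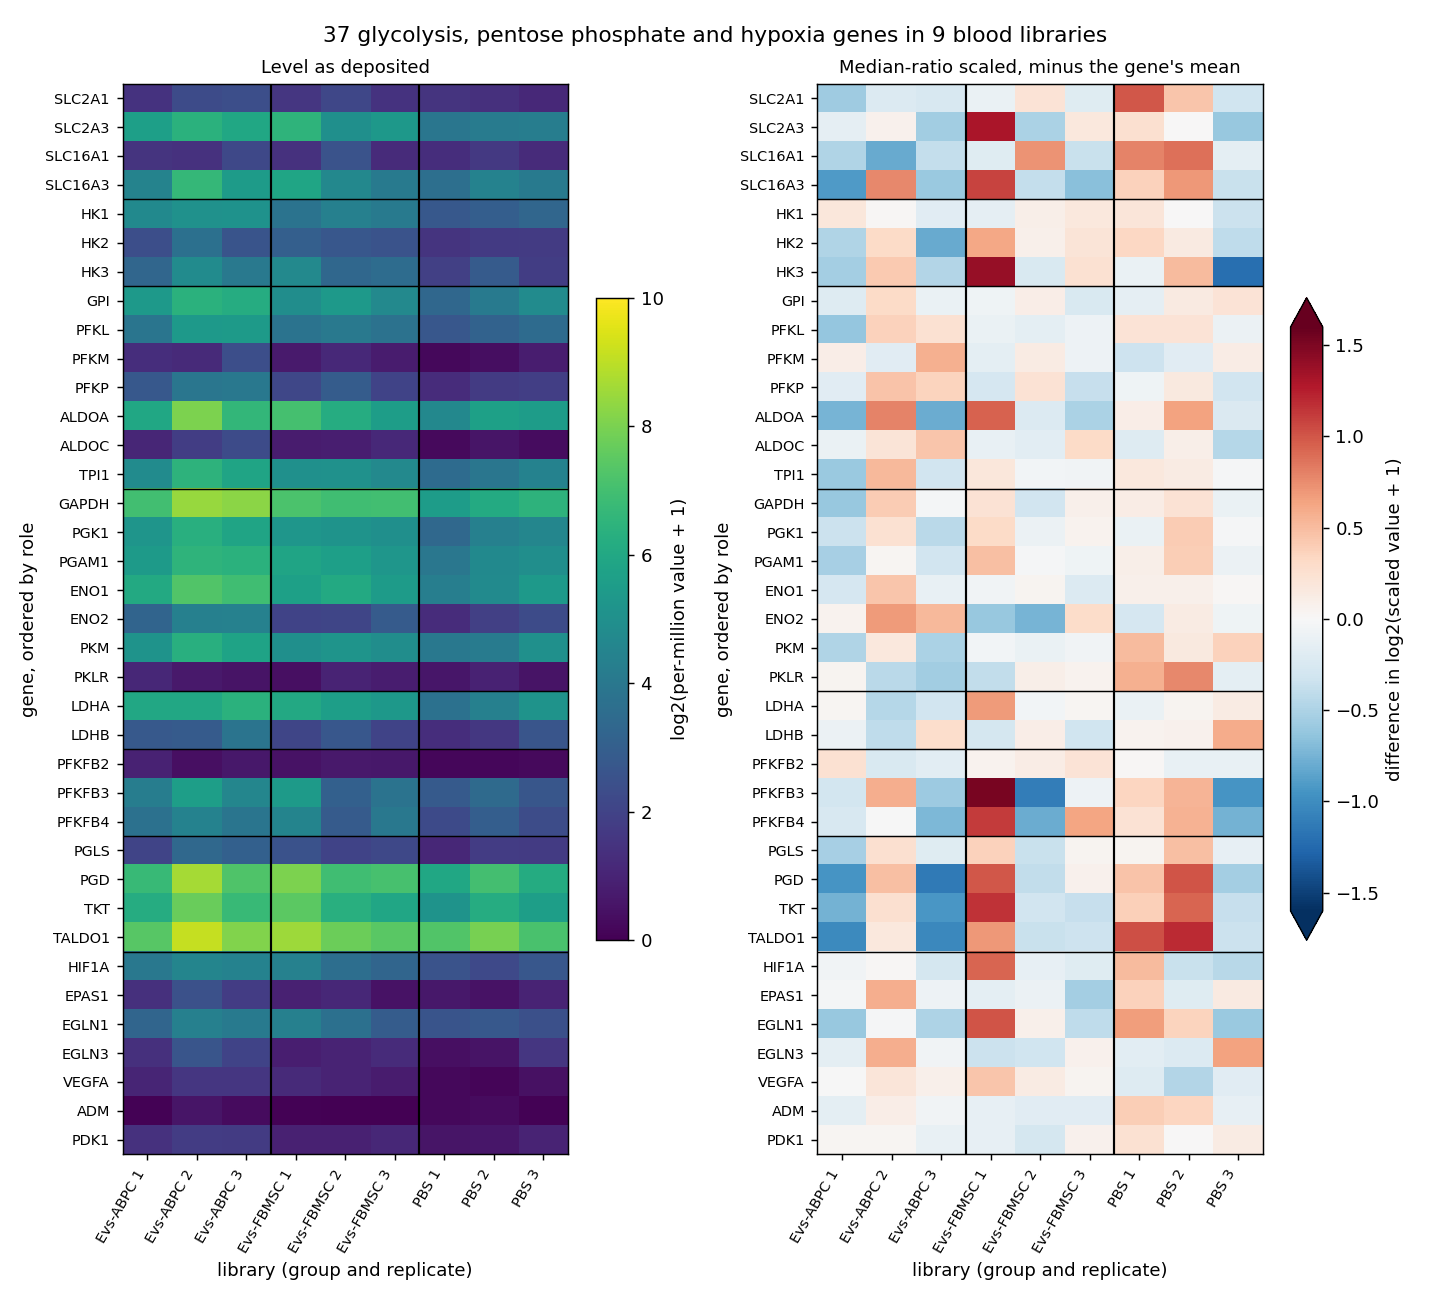
Heat maps of the 37 genes (rows, grouped by role) in the 9 libraries (columns, Evs-ABPC, then Evs-FBMSC, then PBS), as deposited and scaled. In the deposited panel, colour gives the log2 level itself. In the scaled panel, colour gives each gene's log2 value relative to its own mean. As deposited, the Evs-ABPC columns stand highest and the PBS columns lowest for most genes, with GAPDH between 44.7 and 355; after scaling, GAPDH lies between 81.1 and 164.

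As deposited, nearly all glycolysis, pentose phosphate and hypoxia transcripts were higher in Evs-ABPC blood than in PBS blood. By limma, 32 of the 34 tested genes rose (94.1%) and 0 fell. Of all 10596 genes tested, 90.9% rose and 0.0566% fell, so the share among the glucose and hypoxia genes was near that of the whole blood transcriptome. The median log2 fold change was 1.48 over the 34 genes and 1.41 over all genes, and 18 of the 34 lay above the all-gene median. Without the 5 genes that passed the filter only through the Evs-ABPC libraries, 27 of 29 rose. Groups did not overlap for 28 of the 34 genes (82.4%), against 85.4% of all genes. The genes with the smallest p were ENO2, HK1, PFKP and HIF1A. SLC16A1 and TALDO1 did not pass the threshold, with log2 fold changes of 0.29 (adjusted p = 0.433) and 0.77 (adjusted p = 0.125). When the erythroid list was removed and the remaining values rescaled, 0 of the 34 genes passed by limma, and 0 of all genes did (8 of the 34 and 40.8% of all genes at an unadjusted p under 0.05). The medians were then 0.52 over the 34 genes and 0.73 over all genes. Leaving out 1 library at a time gave 27 to 33 calls, and without Evs-ABPC replicate 2 the calls of PGD, TKT, SLC16A3, HK2 and SLC2A1 were lost.

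On the scaled values the same comparison gave no call. By limma 0 of 34 genes and 0 of all 10596 passed, and limma-voom on the recovered reads also gave 0 and 0. Without PBS replicate 3, limma called 1.63% and limma-voom 1.53% of all genes, and still 0 of the 34. At an unadjusted p under 0.05, 0 of the 34 were higher (3.08% of all genes) and 4 were lower (11.8%, against 7.12% of all genes) by limma, while limma-voom gave 1 higher and 4 lower. The 4 lower ones were SLC16A1, PKM, SLC2A1 and TALDO1 with both tools. The median log2 fold change was -0.19 over the 34 genes and 0.00 over all genes, and 9 of the 34 (26.5%) lay above 0, against 50.2% of all genes. By role, the medians were -0.81 for the 4 pentose phosphate enzymes, -0.60 for the 4 carriers, -0.29 for the lactate dehydrogenases, -0.22 for the tested lower glycolysis genes, -0.21 for PFKFB3 and PFKFB4, -0.08 for upper glycolysis, 0.01 for the tested hypoxia genes and 0.06 for the hexokinases. Beside these, the scaled medians of the marker lists were -1.50 for erythroid, -0.54 for B cell, -0.50 for neutrophil and -0.06 for platelet genes. They were 0.13 for monocyte, 0.45 for T cell and 0.94 for NK genes. The part of these cell types in the values above was not tested.

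Evs-FBMSC blood stood between the other groups for most of these genes as deposited. Against PBS, limma called 0 of the 34 genes and 0.264% of all genes. At an unadjusted p under 0.05, 14 of the 34 were higher (41.2%), against 43.6% of all genes, with medians of 0.91 and 0.70. Groups did not overlap for 17 of the 34 (50%), against 50.9% of all genes. The count of calls rested on single libraries: without PBS replicate 3 it was 10, at 43.3% of all genes, and without Evs-ABPC replicate 2, which shares the estimate of spread, it was 4, at 7.03% of all genes. The smallest p belonged to HK3, SLC2A3, HIF1A and HK2, at adjusted p of 0.0815, 0.0897, 0.0909 and 0.0909. On the scaled values limma and limma-voom each called 0 of the 34 and 0 of all genes. VEGFA, which was higher, was the single one of the 34 with an unadjusted p under 0.05 (2.24% of all genes higher at that level), and it was so with both tools. The scaled median was -0.08 over the 34 genes and 0.02 over all genes, and 12 of the 34 (35.3%) lay above 0, against 53% of all genes.

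Between the vesicle groups, Evs-ABPC against Evs-FBMSC, limma called 0 of the 34 genes as deposited and 0.642% of all genes. At an unadjusted p under 0.05, 12 of the 34 were higher (35.3%), against 48% of all genes. Groups did not overlap for 9 of the 34 (26.5%), against 50.5% of all genes. Among the 12 were PFKM, ALDOC, EPAS1 and PDK1, and among the 9 PFKM, EPAS1 and PDK1. These genes had passed the filter only through the Evs-ABPC libraries, so for them the higher values are a description. The medians were 0.67 over the 34 genes and 0.71 over all genes. Here too single libraries set the count of calls, which was 15 without Evs-ABPC replicate 1 (45.8% of all genes called), 5 without PBS replicate 3 (25.7% of all genes) and 3 without Evs-FBMSC replicate 2 (3.98% of all genes). The 15 included PFKM, ALDOC, EPAS1 and PDK1, the 5 included EPAS1 and PDK1, and the 3 included EPAS1. After scaling, limma and limma-voom called 0 of the 34 and 0 of all genes, and ENO2, which was higher, was the single one of the 34 with an unadjusted p under 0.05 (1.39% of all genes higher), with both tools. Of the 34, 11 lay above 0 (32.4%), against 47.2% of all genes, with medians of -0.20 and -0.02. The comparisons share samples, so their values are set side by side and are not independent of each other.

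**Figure D2:**
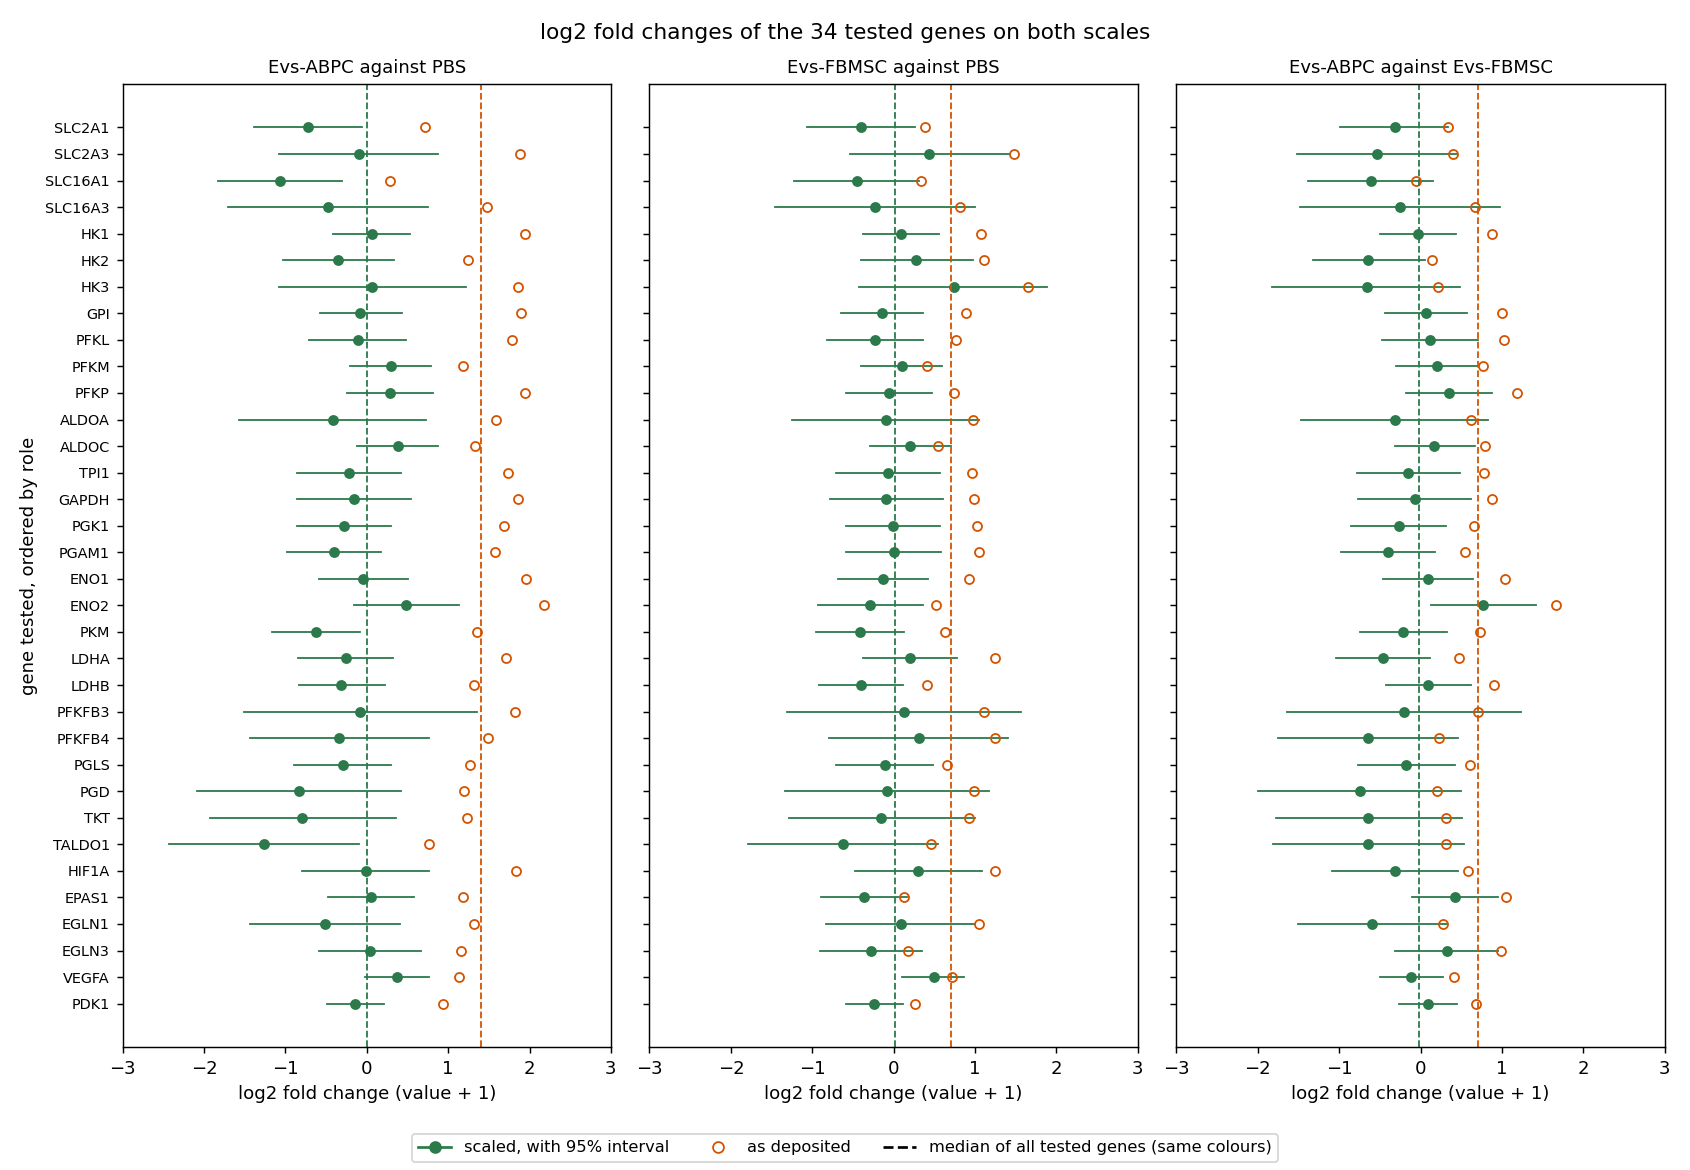
Log2 fold change of each of the 34 tested genes in Evs-ABPC against PBS, Evs-FBMSC against PBS and Evs-ABPC against Evs-FBMSC; filled points with bars are scaled values with their 95% interval from limma, hollow points are values as deposited, and dashed lines mark the median of all genes on each scale. The deposited points cluster near the all-gene median of 1.41 in Evs-ABPC against PBS, while most scaled intervals include 0.

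Among the carriers, SLC16A1, a monocarboxylate carrier of lactate and pyruvate, lay lowest in Evs-ABPC blood relative to other genes. Its scaled values were 1.21, 0.764 and 1.38 in Evs-ABPC libraries, 1.70, 4.09 and 1.41 in Evs-FBMSC libraries and 4.38, 4.68 and 1.77 in PBS libraries. Every Evs-ABPC library lay below every library of both other groups, while Evs-FBMSC and PBS overlapped. Of all genes, 7.51% lay wholly below PBS in this way and 6.8% wholly below Evs-FBMSC. The log2 difference was -1.06 against PBS (95% interval -1.83 to -0.30, limma adjusted p = 0.297) and -0.61 against Evs-FBMSC (adjusted p = 0.934). Read numbers here were reconstructed from the steps between values as the smallest whole numbers that match. For any one gene all of them may therefore be too low by the same whole factor. By them, SLC16A1 rested on 75 to 174 reads in Evs-ABPC libraries, 101 to 339 in Evs-FBMSC libraries and 98 to 204 in PBS libraries. As deposited the order was not seen: SLC16A1 stood at 1.84, 1.66 and 3.47 in Evs-ABPC libraries, 1.67, 4.93 and 1.35 in Evs-FBMSC libraries and 1.45, 2.20 and 1.35 in PBS libraries.

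SLC2A1, the basal glucose carrier of many cells, had scaled values of 1.18, 1.77 and 1.71 in Evs-ABPC libraries, 2.0, 2.77 and 1.83 in Evs-FBMSC libraries and 5.46, 3.40 and 1.59 in PBS libraries. PBS replicate 3 fell within the Evs-ABPC range, so those groups overlapped, whereas the vesicle groups did not overlap each other, as for 6.8% of all genes in this direction. The scaled log2 fold change against PBS was -0.72 (adjusted p = 0.437). As deposited SLC2A1 rose by 0.72 (adjusted p = 0.0448), a call lost in every fit that left out 1 library except the one without Evs-ABPC replicate 1. SLC2A3, the high-affinity glucose carrier of leukocytes and neurons, was more abundant, with 49.6, 81.7 and 60.9 in Evs-ABPC libraries, 89.5, 30.2 and 39.0 in Evs-FBMSC libraries and 14.3, 17.0 and 17.9 in PBS libraries as deposited. All treated libraries stood above all PBS libraries, as was so for 85.4% of all genes in Evs-ABPC and for 50.9% in Evs-FBMSC. After scaling its values overlapped in every pair of groups, and the highest was 90.9 in Evs-FBMSC replicate 1. The scaled difference between Evs-FBMSC and PBS was 0.44 with all libraries and -0.06 without that library. SLC16A3, a lactate exporter of glycolytic cells, had scaled values of 13.9 to 46.5 in Evs-ABPC, 16.5 to 57.9 in Evs-FBMSC and 20.9 to 44.2 in PBS libraries.

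The 3 hexokinases, which trap glucose in the cell as glucose 6-phosphate, differed in how they varied between animals. HK1, the hexokinase of red cells and of most tissues, had 25.8, 32.6 and 32.8 in Evs-ABPC libraries, 13.2, 19.2 and 16.1 in Evs-FBMSC libraries and 5.67, 7.01 and 8.79 in PBS libraries as deposited. The 3 groups were fully separated, and the rise over PBS was 1.95 (SE 0.39, limma adjusted p = 0.000417). Such separation was found for 85.4% of all genes in Evs-ABPC over PBS, 50.9% in Evs-FBMSC over PBS and 50.5% in Evs-ABPC over Evs-FBMSC. After scaling HK1 averaged 15.0 ± 1.97 in Evs-ABPC, 15.3 ± 1.77 in Evs-FBMSC and 14.5 ± 2.87 in PBS libraries (SD, n = 3 each). Its highest scaled value was 1.5 times its lowest, which made it, with GPI (1.48 times), among the most even of the tested genes. HK3, a hexokinase found mainly in myeloid cells, was the most uneven of the 34, with a scaled range of 7.56-fold. Its scaled values were 5.89, 12.4 and 6.23 in Evs-ABPC libraries, 25.3, 7.49 and 10.9 in Evs-FBMSC libraries and 8.29, 13.3 and 3.35 in PBS libraries. The groups overlapped in every pair. As deposited HK3 rose in Evs-ABPC blood by 1.86 (adjusted p = 0.000863). HK2, an inducible hexokinase, had scaled values of 2.80, 5.53 and 2.04 in Evs-ABPC libraries, 7.16, 4.63 and 5.14 in Evs-FBMSC libraries and 5.65, 4.85 and 3.01 in PBS libraries. Its difference between Evs-ABPC and Evs-FBMSC was -0.64 (adjusted p = 0.927), with Evs-ABPC replicate 2 inside the Evs-FBMSC range.

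In upper glycolysis, all 7 genes rose in Evs-ABPC blood over PBS as deposited, as did 90.9% of all genes, by limma. PFKM and ALDOC among them had passed the filter only through the Evs-ABPC libraries. After scaling 0 of the 7 passed, and 0 of all genes did. At an unadjusted p under 0.05 none of these 7 passed with limma or limma-voom on the scaled values. PFKP, the platelet-type phosphofructokinase, had 5.77, 14.0 and 14.9 in Evs-ABPC libraries, 3.43, 6.49 and 3.05 in Evs-FBMSC libraries and 1.38, 2.35 and 2.58 in PBS libraries as deposited. Evs-ABPC and PBS did not overlap, as for 85.4% of all genes in this direction, and the rise was 1.94 (SE 0.39, adjusted p = 0.000426). Its scaled means were 5.38 ± 1.40 in Evs-ABPC, 4.02 ± 1.19 in Evs-FBMSC and 4.18 ± 0.822 in PBS libraries (SD, n = 3 each). PFKL, the liver-type subunit and the most abundant of the 3 phosphofructokinases, had scaled values of 8.93 to 18.7 in Evs-ABPC, 12.7 to 13.4 in Evs-FBMSC and 13.3 to 16.8 in PBS libraries. PFKM, the muscle-type subunit, had scaled values of 0.966, 0.606 and 1.71 in Evs-ABPC libraries, 0.638, 1.0 and 0.718 in Evs-FBMSC libraries and 0.445, 0.614 and 0.983 in PBS libraries, from 13 to 218 reads. ALDOC, the brain-type aldolase, had scaled values of 0.730, 1.15 and 1.53 in Evs-ABPC libraries, 0.714, 0.660 and 1.31 in Evs-FBMSC libraries and 0.606, 0.986 and 0.352 in PBS libraries, from 9 to 99 reads. Groups overlapped in every pair for both genes.

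ALDOA, the main aldolase outside liver and brain, had 61.4, 260 and 98.4 in Evs-ABPC libraries, 131, 71.1 and 45.8 in Evs-FBMSC libraries and 24.4, 50.6 and 44.8 in PBS libraries as deposited. Its level varied 4.23-fold among Evs-ABPC animals, so that the group's SD was 106 on a mean of 140 (n = 3). The rise over PBS was 1.59 (SE 0.52, adjusted p = 0.00708). After scaling ALDOA ranged from 39.1 to 120 in Evs-ABPC, from 47.8 to 133 in Evs-FBMSC and from 58.4 to 108 in PBS libraries. GPI, which interconverts glucose and fructose 6-phosphates, and TPI1, triosephosphate isomerase, were steadier, with scaled means of 31.3 ± 6.30 and 26.7 ± 11.6 in Evs-ABPC, 29.6 ± 3.68 and 28.2 ± 2.84 in Evs-FBMSC and 32.8 ± 4.20 and 29.6 ± 2.05 in PBS libraries (SD, n = 3 each).

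In lower glycolysis, ENO2 stood apart from ENO1, the common enolase. ENO2, an enolase best known from neurons and also made in blood cells, had 8.35, 19.5 and 20.1 in Evs-ABPC libraries, 3.06, 3.29 and 6.38 in Evs-FBMSC libraries and 1.39, 2.76 and 3.81 in PBS libraries as deposited. Every Evs-ABPC library was above every other library, and the rise over PBS was 2.18 (SE 0.40, limma adjusted p = 0.000417), the smallest p of the 34 genes. Of all genes, 85.4% had Evs-ABPC wholly above PBS and 50.5% had it wholly above Evs-FBMSC. Against Evs-FBMSC the difference was 1.66 (SE 0.40, adjusted p = 0.0543), and ENO2 passed the threshold in 6 of the 9 fits without 1 library. After scaling it had 5.49, 9.01 and 8.0 in Evs-ABPC libraries, 3.11, 2.73 and 6.66 in Evs-FBMSC libraries and 4.20, 5.88 and 4.97 in PBS libraries. On that scale Evs-ABPC replicate 1 overlapped both other groups, and the differences were 0.48 against PBS (adjusted p = 0.626) and 0.77 against Evs-FBMSC (95% interval 0.13 to 1.42, adjusted p = 0.917).

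PKM, the pyruvate kinase of leukocytes and most tissues, rose in Evs-ABPC over PBS as deposited, by 1.36 (limma adjusted p = 0.00624). After scaling it lay lower than in PBS on average in both vesicle groups. Its scaled values were 22.4, 36.0 and 22 in Evs-ABPC libraries, 30.9, 29.5 and 30.4 in Evs-FBMSC libraries and 45.7, 35.4 and 41.2 in PBS libraries. All Evs-FBMSC libraries lay below all PBS libraries, and Evs-ABPC replicate 2 lay between the PBS values. The scaled log2 fold changes against PBS were -0.62 in Evs-ABPC (95% interval -1.16 to -0.08, adjusted p = 0.413) and -0.41 in Evs-FBMSC (adjusted p = 0.998), and non-overlap in the direction of Evs-FBMSC was found for 4.71% of all genes. GAPDH, glyceraldehyde 3-phosphate dehydrogenase and a common reference transcript, had 123, 355 and 306 in Evs-ABPC libraries, 142, 120 and 125 in Evs-FBMSC libraries and 44.7, 68.0 and 88.3 in PBS libraries as deposited. Its libraries were separated between Evs-ABPC and PBS, as for 85.4% of all genes in this direction, with a rise of 1.86 (adjusted p = 0.00104). Scaled means were 122 ± 41.3 in Evs-ABPC, 125 ± 23.0 in Evs-FBMSC and 132 ± 15.1 in PBS libraries (SD, n = 3 each), a difference of -0.16 between Evs-ABPC and PBS (95% interval -0.86 to 0.54).

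ENO1 had scaled values of 43.8 to 72.2 in Evs-ABPC, 45.2 to 54.8 in Evs-FBMSC and 53.4 to 55.9 in PBS libraries, and PGK1, which makes the first ATP of the pathway, had 22.4 to 36.3, 28.5 to 38.0 and 28.3 to 41.0 in the same order of groups. PGAM1, phosphoglycerate mutase, had scaled values of 28.0, 41.8 and 33.0 in Evs-ABPC libraries, 57.5, 40.5 and 39.1 in Evs-FBMSC libraries and 43.8, 54.3 and 38.4 in PBS libraries. Evs-ABPC replicate 2 lay within the range of both other groups, and the difference from Evs-FBMSC was -0.40 (adjusted p = 0.934).

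Neither lactate dehydrogenase subunit passed the threshold after scaling, by limma or limma-voom. LDHA, the subunit that favours lactate formation, had scaled values of 41.5, 29.3 and 32.4 in Evs-ABPC libraries, 65.2, 39.2 and 41.3 in Evs-FBMSC libraries and 37.6, 41.6 and 44.3 in PBS libraries. Evs-ABPC replicate 1 kept the Evs-ABPC group from lying wholly below the others, and Evs-FBMSC replicate 1 was the highest of all. The LDHA difference between Evs-FBMSC and PBS was 0.20 with all libraries and -0.03 without the highest-neutrophil library of each group. LDHB, the heart-type subunit that is also abundant in lymphocytes, had 3.86, 2.94 and 5.35 in Evs-ABPC libraries, 3.30, 4.58 and 3.17 in Evs-FBMSC libraries and 4.40, 4.44 and 6.85 in PBS libraries. Its groups overlapped in every pair, and its difference between Evs-FBMSC and PBS was -0.40 (adjusted p = 0.998). As deposited both subunits rose in Evs-ABPC blood, LDHA by 1.71 (adjusted p = 0.00129) and LDHB by 1.32 (adjusted p = 0.00403).

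PFKFB3 and PFKFB4 set the level of fructose 2,6-bisphosphate, the main activator of phosphofructokinase. Both rose in Evs-ABPC blood as deposited, by 1.82 (adjusted p = 0.00221) and 1.49 (adjusted p = 0.0029). Scaled PFKFB3 values ran from 9.28 to 22.1 in Evs-ABPC, from 6.17 to 42.9 in Evs-FBMSC and from 7.02 to 21.5 in PBS libraries, and those of PFKFB4 from 5.48 to 9.61, from 5.16 to 22.1 and from 5.31 to 14.7 in the same order. The spread within Evs-FBMSC exceeded any difference between groups for both.

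TALDO1, PGD and TKT of the pentose phosphate branch were among the 5 most abundant of these transcripts, and their scaled levels lay lower in Evs-ABPC than in PBS blood on average, with overlap. TALDO1, transaldolase of the non-oxidative branch, had scaled values of 112, 257 and 111 in Evs-ABPC libraries, 372, 179 and 181 in Evs-FBMSC libraries and 469, 522 and 180 in PBS libraries. PBS replicate 3 lay below Evs-ABPC replicate 2, and the log2 fold change was -1.26 in Evs-ABPC against PBS (95% interval -2.43 to -0.09, limma adjusted p = 0.445) and -0.62 in Evs-FBMSC against PBS (adjusted p = 0.999). As deposited it stood at 170, 557 and 278 in Evs-ABPC libraries, 366, 216 and 173 in Evs-FBMSC libraries and 155, 245 and 138 in PBS libraries. TALDO1 was thus 1 of the 2 tested genes without a call in Evs-ABPC against PBS; without Evs-ABPC replicate 1 it passed.

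PGD, which makes NADPH in the oxidative branch, had 105, 404 and 152 in Evs-ABPC libraries, 263, 122 and 134 in Evs-FBMSC libraries and 60.3, 127 and 69.6 in PBS libraries as deposited. Its rise over PBS was 1.19 (SE 0.51, adjusted p = 0.0305), with Evs-ABPC replicate 1 inside the PBS range. TKT, transketolase, had 72.1, 209 and 105 in Evs-ABPC libraries, 178, 78.7 and 59.3 in Evs-FBMSC libraries and 34.6, 72.4 and 47.6 in PBS libraries, with a rise over PBS of 1.23 (SE 0.50, adjusted p = 0.0243). Both calls were lost without Evs-ABPC replicate 2, without PBS replicate 1 and without PBS replicate 3. After scaling PGD averaged 105 ± 70.4 in Evs-ABPC, 169 ± 86.6 in Evs-FBMSC and 181 ± 89.2 in PBS libraries, and TKT averaged 61.9 ± 30, 103 ± 67.9 and 107 ± 46.1 in the same order (SD, n = 3 each). PGLS, the lactonase between the oxidative steps, was far less abundant, with scaled values of 2.08 to 5.25 over all libraries. The summed value of the 4 enzymes was 1.12, 1.51 and 0.845 times that of the lower glycolysis genes in Evs-ABPC libraries, 2.53, 1.35 and 1.36 times in Evs-FBMSC libraries and 2.41, 2.80 and 1.18 times in PBS libraries. This ratio needs no scaling between libraries, and its ranges in Evs-ABPC and PBS overlapped through PBS replicate 3.

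Among the hypoxia genes, HIF1A, the oxygen-regulated factor present in most cells, had 15.0, 22.5 and 20.8 in Evs-ABPC libraries, 20.2, 11.2 and 8.51 in Evs-FBMSC libraries and 4.96, 3.67 and 5.60 in PBS libraries as deposited. All treated libraries lay above all PBS libraries, and the rise in Evs-ABPC was 1.83 (SE 0.40, limma adjusted p = 0.000479). Of all genes, 85.4% lay wholly above PBS in Evs-ABPC and 50.9% in Evs-FBMSC. After scaling HIF1A averaged 9.49 ± 1.09 in Evs-ABPC, 12.9 ± 6.59 in Evs-FBMSC and 10 ± 4.31 in PBS libraries (SD, n = 3 each), a log2 difference of -0.01 between Evs-ABPC and PBS (95% interval -0.79 to 0.76).

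EPAS1, a related factor best known from endothelium, had scaled values of 1.05, 2.14 and 0.981 in Evs-ABPC libraries, 0.884, 0.972 and 0.438 in Evs-FBMSC libraries and 1.70, 0.832 and 1.32 in PBS libraries. The vesicle groups did not overlap, as for 4.23% of all genes in this direction, but Evs-ABPC replicate 3 exceeded the highest Evs-FBMSC value only slightly. The difference was 0.42 (95% interval -0.11 to 0.95, adjusted p = 0.934). As deposited EPAS1 had 1.6, 4.64 and 2.47 in Evs-ABPC libraries, 0.871, 1.17 and 0.419 in Evs-FBMSC libraries and 0.560, 0.391 and 1.01 in PBS libraries, a log2 difference of 1.18 between Evs-ABPC and PBS that the filter had favoured.

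VEGFA, the secreted angiogenic factor, was the gene of this set whose scaled values were apart from PBS in both vesicle groups. They were 0.680, 0.930 and 0.790 in Evs-ABPC libraries, 1.30, 0.848 and 0.739 in Evs-FBMSC libraries and 0.468, 0.227 and 0.489 in PBS libraries. Every treated library lay above every PBS library, as was found for 6.45% of all genes in Evs-ABPC and for 4.96% in Evs-FBMSC. VEGFA had passed the filter only through the Evs-ABPC libraries, with 0 PBS libraries at 1 or more as deposited. Its separation from PBS is therefore a description. The log2 differences were 0.37 in Evs-ABPC (95% interval -0.02 to 0.76, adjusted p = 0.505) and 0.49 in Evs-FBMSC (95% interval 0.10 to 0.87, adjusted p = 0.957). These levels rested on few reads, 56, 74 and 81 in Evs-ABPC libraries, 72, 57 and 43 in Evs-FBMSC libraries and 11, 8 and 22 in PBS libraries. The added 1 shrinks changes of so low a gene: with 0.1 added the differences were 0.90 and 1.12, and limma-voom on the reads gave 1.04 (adjusted p = 0.501) and 1.27 (adjusted p = 0.999). The shared PBS libraries enter both comparisons.

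EGLN1 and EGLN3 encode prolyl hydroxylases that act on the hypoxia-inducible factors. Scaled EGLN1 ran from 5.73 to 9.09 in Evs-ABPC, from 6.73 to 19.6 in Evs-FBMSC and from 5.75 to 15.2 in PBS libraries. EGLN3 as deposited had 1.59, 5.25 and 3.02 in Evs-ABPC libraries, 0.790, 1.0 and 1.34 in Evs-FBMSC libraries and 0.339, 0.456 and 1.97 in PBS libraries. Evs-ABPC lay wholly above Evs-FBMSC, as for 50.5% of all genes, by 0.99 (adjusted p = 0.0737), and overlapped PBS through PBS replicate 3. After scaling EGLN3 overlapped in every pair of groups. PDK1, a kinase that inhibits pyruvate dehydrogenase, had scaled values of 1.13, 1.14 and 0.926 in Evs-ABPC libraries, 0.912, 0.720 and 1.19 in Evs-FBMSC libraries and 1.48, 1.09 and 1.28 in PBS libraries, and its groups overlapped. The untested genes were rare: ADM had 0 to 9 reads per library, PKLR 15 to 58 and PFKFB2 27 to 151.

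**Figure D3:**
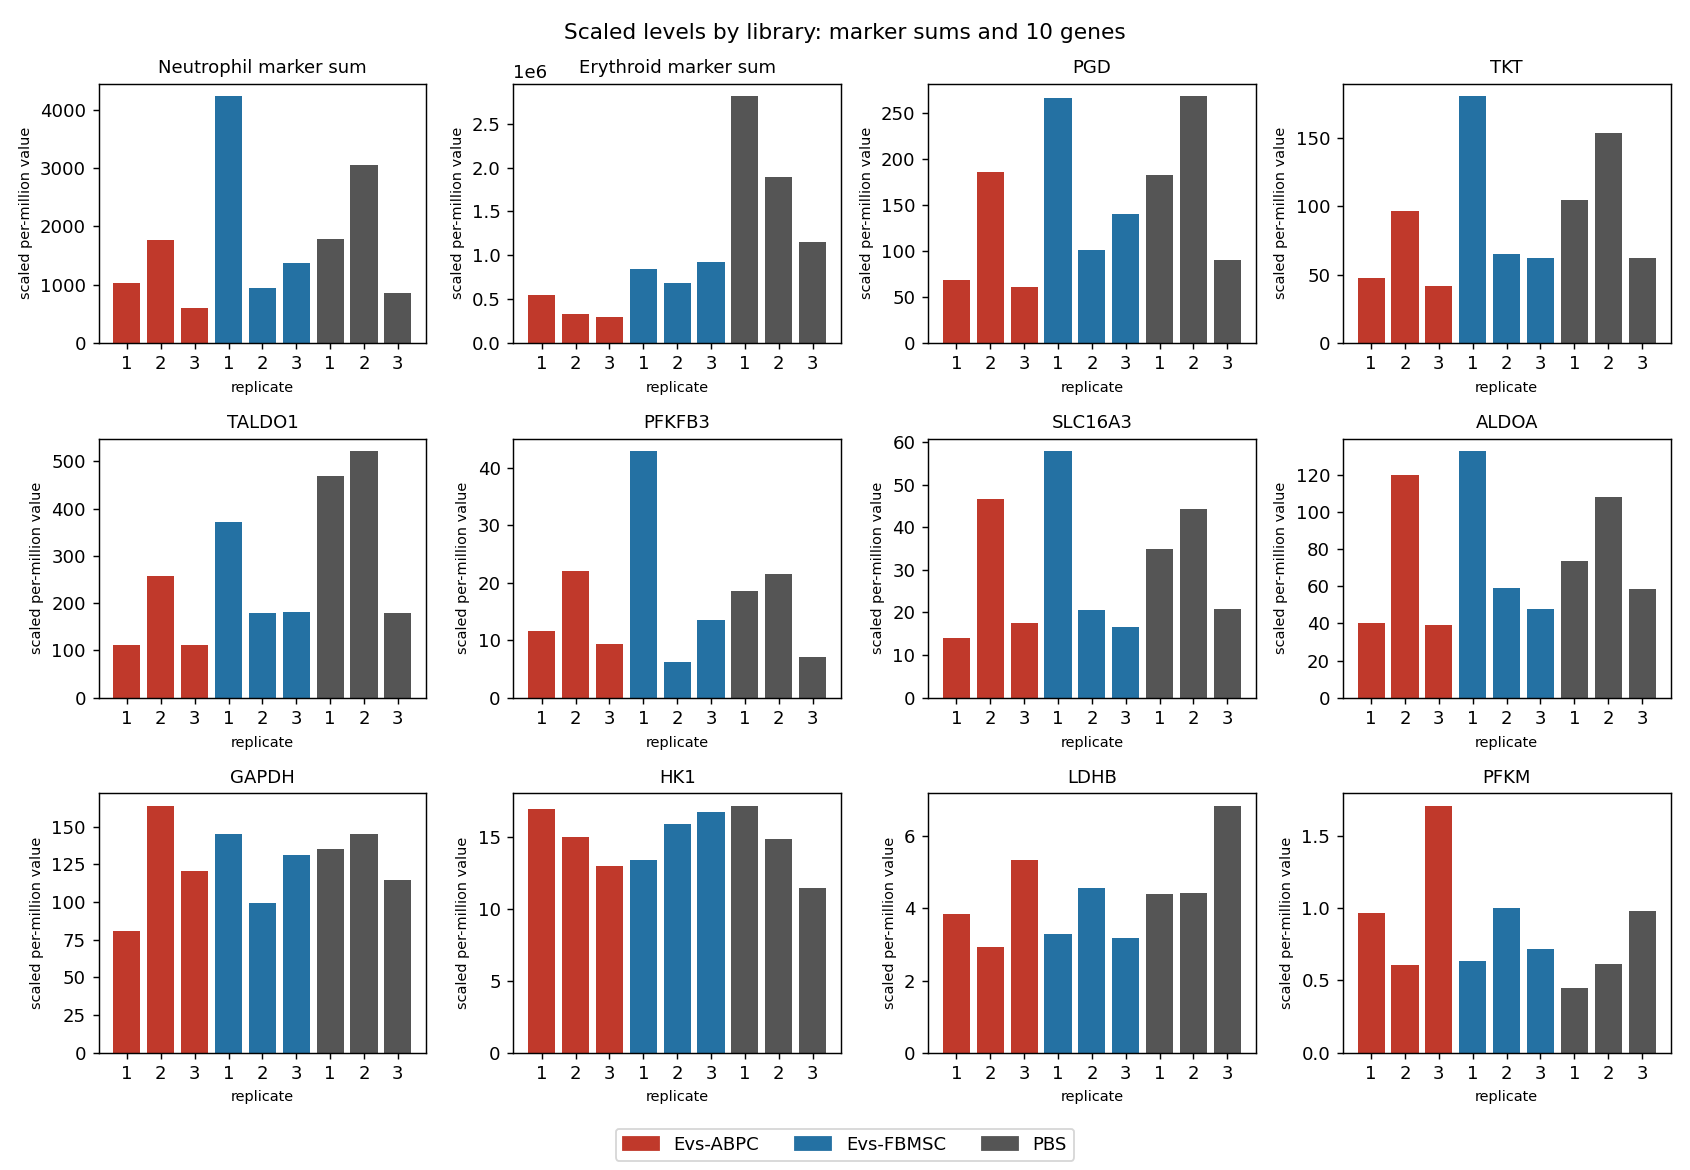
Scaled values per library (bars, linear axes from 0; Evs-ABPC, Evs-FBMSC and PBS from left to right) of the neutrophil and erythroid marker sums and of 10 of the genes. Evs-ABPC replicate 2, Evs-FBMSC replicate 1 and PBS replicate 2, at neutrophil sums of 1766, 4235 and 3046, are also the highest of their group for PGD, TKT, TALDO1, PFKFB3, SLC16A3, ALDOA and GAPDH, whereas HK1, LDHB and PFKM do not follow them.

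Within groups, many of the genes followed the animals with the most neutrophil RNA. The scaled sum of 13 neutrophil markers was 1030, 1766 and 601 in Evs-ABPC libraries, 4235, 940 and 1378 in Evs-FBMSC libraries and 1788, 3046 and 857 in PBS libraries. The library with the highest sum was also the highest of its group in all 3 groups for 12 of the 34 genes (35.3%), against 12.1% of all genes. These were HK3, ALDOA, GAPDH, PGK1, PGAM1, SLC16A3, PFKFB3, PFKFB4, PGLS, PGD, TKT and TALDO1, so they included all 4 pentose phosphate enzymes. In 0 of the groups did this hold for HK1, PFKM and LDHB (8.82%, against 32.2% of all genes). For the monocyte sum the 3-group match held for HK2, TPI1, PKM, SLC2A3, HIF1A and EGLN1 (17.6%, against 7.80%), for the T cell and NK sums for SLC16A1, and for the erythroid sum for HK1 (2.94%, against 3.14%). The monocyte sum was highest in the same library as the neutrophil sum in both vesicle groups, but in PBS replicate 1 among PBS libraries. The neutrophil and monocyte matches thus differ only through the PBS group. The counts are a description of 9 libraries. With the highest-neutrophil library of each group left out together, a choice made after seeing the data, 21 of the 34 genes were called in Evs-ABPC against PBS as deposited, at 77.1% of all genes called, and PGD, TKT and ALDOA were among the 11 calls lost. On the scaled values that limma fit called 0 of the 34 (7 at an unadjusted p under 0.05, against 11.4% of all genes), and TALDO1 differed by -1.38, PGD by -0.99 and TKT by -0.84 between Evs-ABPC and PBS.

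Plain ratios of isoenzymes within a library do not depend on the scaling. The tests and counts below added 0.1 to each value as deposited, so for low genes they depend on it slightly. Of 12 pairs with both genes tested, 3 had Evs-ABPC and PBS libraries apart (25%), 1 had Evs-FBMSC and PBS apart (8.33%) and 1 had the vesicle groups apart (8.33%). These are shares of the 12 pairs alone. No share over other pairs of genes was computed, so the counts are a description. With 3 animals a group the smallest exact two-sided permutation p is 0.1, and over the 36 tests every adjusted p was 0.675 or more. SLC2A3 stood at 27.6, 21.3 and 14.1 times SLC2A1 in Evs-ABPC libraries, 45.4, 9.06 and 22.3 times in Evs-FBMSC libraries and 7.91, 10.7 and 14.6 times in PBS libraries. Evs-ABPC replicate 3 and PBS replicate 3 nearly coincided: they overlapped in this plain ratio and were apart, at log2 ratios of 3.79 and 3.77, once 0.1 was added to each value as in the tests. The log2 ratios averaged 4.29 ± 0.47 in Evs-ABPC and 3.34 ± 0.43 in PBS libraries (SD, n = 3 each), a difference of 0.95 (exact permutation p = 0.1).

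ENO2 stood at 0.125, 0.125 and 0.164 times ENO1 in Evs-ABPC libraries, 0.0610, 0.0498 and 0.147 times in Evs-FBMSC libraries and 0.0751, 0.105 and 0.0932 times in PBS libraries. Every Evs-ABPC ratio exceeded every PBS ratio, by 0.55 on the log2 scale (exact permutation p = 0.1), while Evs-FBMSC replicate 3 lay within the Evs-ABPC range. PFKP stood at 0.425, 0.345 and 0.347 times PFKL in Evs-ABPC libraries, 0.265, 0.424 and 0.239 times in Evs-FBMSC libraries and 0.251, 0.298 and 0.254 times in PBS libraries. Here too Evs-ABPC lay above PBS throughout, by 0.43 (exact permutation p = 0.1). EPAS1 stood at 0.107, 0.206 and 0.118 times HIF1A in Evs-ABPC libraries, 0.0431, 0.105 and 0.0492 times in Evs-FBMSC libraries and 0.113, 0.107 and 0.181 times in PBS libraries. Evs-FBMSC was lowest, by 1.06 relative to Evs-ABPC and by 1.12 relative to PBS (exact permutation p = 0.1 for each), but Evs-FBMSC replicate 2 lay next to the lowest value of both other groups. EPAS1 had passed the filter only through the Evs-ABPC libraries, and without that the pair would not have been used. This was the 1 pair apart between the vesicle groups, and that separation is therefore a description. Among the other pairs, LDHB stood at 0.0506 to 0.165 times LDHA and EGLN3 at 0.0410 to 0.447 times EGLN1, with overlap between the groups.

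**Figure D4:**
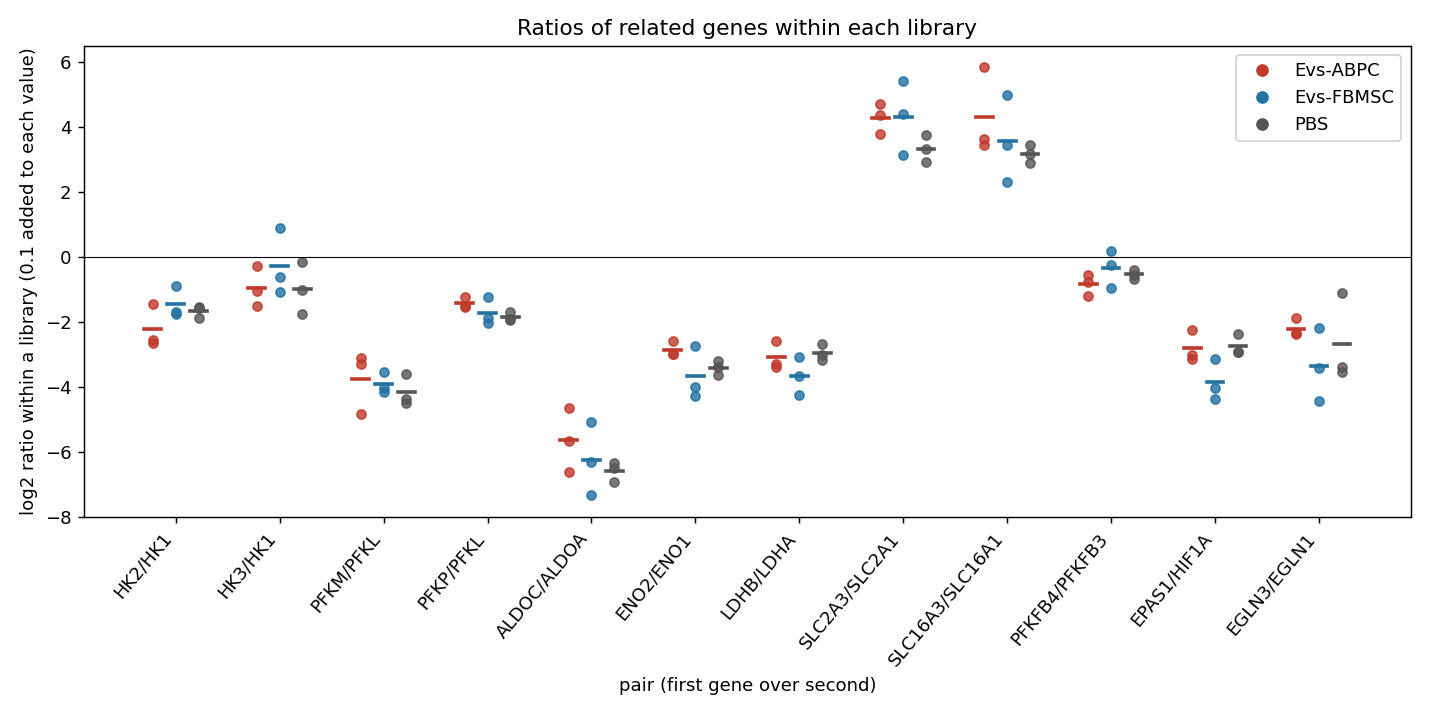
Log2 ratio of 12 isoenzyme pairs within each library (points; Evs-ABPC, Evs-FBMSC and PBS), with 0.1 added to each value. The SLC2A3/SLC2A1, ENO2/ENO1 and PFKP/PFKL ratios are higher in all Evs-ABPC than in all PBS libraries, and EPAS1/HIF1A is lowest in Evs-FBMSC. For SLC2A3/SLC2A1 the plain ratios overlap, and replicate 3 of Evs-ABPC and of PBS lie at 3.79 and 3.77 here. EPAS1 passed the filter only through the Evs-ABPC libraries.

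Other genes of the same pathways were taken from a list of 69, of which 45 were tested. As deposited 39 of them rose in Evs-ABPC blood over PBS (86.7%, against 90.9% of all genes), and limma called 0 in each of the other comparisons, with 25 higher in Evs-FBMSC against PBS (43.6% of all genes) and 16 higher in Evs-ABPC against Evs-FBMSC (48% of all genes) at an unadjusted p under 0.05. After scaling limma and limma-voom called 0 in every comparison. At an unadjusted p under 0.05, limma then had 4 lower in Evs-ABPC against PBS (7.12% of all genes), 1 lower in Evs-FBMSC against PBS (2.6%) and 5 lower in Evs-ABPC against Evs-FBMSC (3.97%), and 0 higher. The scaled genes with the smallest p were lower in Evs-ABPC blood. MXI1, a MAX-binding antagonist of MYC and a hypoxia target, had scaled values of 22.9, 12.3 and 14.7 in Evs-ABPC libraries, 33.4, 32.6 and 31.5 in Evs-FBMSC libraries and 82.5, 53.4 and 40.9 in PBS libraries. The 3 groups were fully apart, with differences of -1.75 for Evs-ABPC against PBS (adjusted p = 0.1), -0.78 for Evs-FBMSC against PBS (adjusted p = 0.976) and -0.97 for Evs-ABPC against Evs-FBMSC (adjusted p = 0.830). MPC2, a subunit of the mitochondrial pyruvate carrier, had 4.61, 4.18 and 3.90 in Evs-ABPC libraries, 8.25, 10.1 and 5.60 in Evs-FBMSC libraries and 17.7, 12.1 and 6.87 in PBS libraries. Evs-ABPC lay below both other groups, by -1.25 against PBS (adjusted p = 0.195). BPGM, which makes the 2,3-bisphosphoglycerate of red cells, had 51.0, 23.1 and 54.5 in Evs-ABPC libraries, 107, 102 and 80.5 in Evs-FBMSC libraries and 209, 189 and 59.8 in PBS libraries. Again Evs-ABPC lay below both other groups, with a difference of -1.71 against PBS (adjusted p = 0.256). These values moved beside the scaled erythroid sum, which was 300356 to 545010 in Evs-ABPC libraries, 688740 to 919443 in Evs-FBMSC libraries and 1156949 to 2818998 in PBS libraries, and its part in them was not tested. BPGM is itself in the erythroid list that makes up this sum. After scaling, 7.51% of all genes had Evs-ABPC wholly below PBS, 6.8% had it wholly below Evs-FBMSC, and 4.71% had Evs-FBMSC wholly below PBS. As deposited MXI1 had 26.6 to 36.9 in Evs-ABPC, 30.1 to 39.3 in Evs-FBMSC and 25.1 to 31.4 in PBS libraries, with overlap in every pair of groups. MPC2 and BPGM then lay the other way against PBS. Deposited MPC2 had 7.01 to 9.82 in Evs-ABPC, 5.36 to 12.2 in Evs-FBMSC and 5.27 to 5.86 in PBS libraries. Evs-ABPC thus lay wholly above PBS, as for 85.4% of all genes. BPGM averaged 88.3, 102 and 67.9 in the same order, with overlap between Evs-ABPC and PBS.

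In the other directions, genes with the smallest scaled p included BNIP3 and ARNT, higher in Evs-ABPC than in PBS on average, INSIG2, ERO1A and PDK4, higher in Evs-FBMSC than in PBS, and DLAT and MIF, higher in Evs-ABPC than in Evs-FBMSC. PDK4, which like PDK1 inhibits pyruvate dehydrogenase, differed by -0.61 (adjusted p = 0.900) between the vesicle groups. PRPS1, which makes the ribose precursor of nucleotides, was lower in Evs-FBMSC than in PBS on average. None of these passed the threshold on the scaled values by limma.

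The 37 genes together made up 0.106%, 0.290% and 0.183% of the per-million total in Evs-ABPC libraries, 0.171%, 0.109% and 0.0935% in Evs-FBMSC libraries and 0.0481%, 0.0805% and 0.0695% in PBS libraries. Every treated library exceeded every PBS library. As a share of what the erythroid list left, they made up 0.618%, 1.01% and 0.749% in Evs-ABPC libraries, 1.0%, 0.642% and 0.781% in Evs-FBMSC libraries and 0.699%, 0.726% and 0.616% in PBS libraries. On that measure the 3 groups overlapped, and the highest library of each group was the one with the most neutrophil marker RNA.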

How the data were processed

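Whole-blood RNA of 9 macaques was analysed from 1 table of log2 values as deposited by the authors. Per the labels' protocols, total RNA was made into NEBNext Ultra libraries and sequenced as paired-end reads. The submitters' processing notes name build Mmul_10; for the aligner, counting program and strand setting the sources used here give nothing. From the values, the authors' log2 was taken of a per-million value plus 0.5. This was undone, and whole reads were recovered for 99.9722% of 21551 genes (tolerance 0.001 reads), including all 37 genes; they give depth and a limma-voom alternative. They are exact only up to a whole factor per gene.

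The planned count test needed counts, so limma 3.58.1 (R 4.3.3) with a trend was run on log2(value + 1), on 10596 genes at 1 or more in at least 3 libraries, fitting the 9 libraries together by group with no covariate. Adjustment was by Benjamini-Hochberg across the tested genes (threshold 0.05). Fold changes on this scale understate changes of low genes. Scaled values were divided by median-ratio factors. The code was tested on simulated data. Isoenzyme ratios were compared by exact two-sided permutation tests.

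Values in every library are given for the 4 genes of smallest p on either side per comparison and scale and for the 5 with the highest mean; other pathway genes are named by the 3 smallest scaled p. A gene that this rule names is not reported here. Exceptions named outside this rule were chosen after their values were seen. The genes and lists were chosen with earlier results of these data known. Alternatives were other pseudocounts, filters, fits and libraries left out. Reads are not independent molecules, so read numbers cover counting error only.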

Additional observations from a re-analysis of the deposited data

How the results depend on the processing

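After scaling, limma called 0 of the 34 genes under every alternative run, including other pseudocounts and filters, factors from genes outside the erythroid list, limma-voom, the replicate block and each library left out; of all genes it called 1.63% in Evs-ABPC against PBS without PBS replicate 3. As deposited, the 32 calls in Evs-ABPC against PBS ranged from 27 to 33 when 1 library was left out, were 21 without the highest-neutrophil library of each group (chosen after seeing the data) and 0 with the erythroid list taken out, where ENO2, HK1, PFKP and HIF1A kept their direction at 1.31, 0.83, 1.09 and 0.76. For Evs-FBMSC against PBS, the 0 calls became 4 with a mean of at least 5 (15.2% of all genes) and 5 in a fit of those 2 groups alone (10%), and ranged from 0 to 10 (43.3%) with 1 library left out. For Evs-ABPC against Evs-FBMSC they became 1 with a mean of at least 5 (1.69%), and ranged from 0 to 15 (45.8%) with 1 library left out. Calls in that comparison included EPAS1, PDK1, ALDOC and PFKM with 1 library left out, and EPAS1, PDK1 and ALDOC with the replicate block. These genes passed the main filter only through the Evs-ABPC libraries. The replicate numbers mark different animals and did not pair the samples (correlations of deviations from -0.25 to 0.28); with the replicate block, Evs-ABPC against Evs-FBMSC gave 6 calls (32.1% of all genes) and Evs-ABPC against PBS 32 (91.4%). Isoenzyme pairs with groups apart ranged from 3 to 7, 1 to 3 and 1 to 3 in the 3 comparisons with 1 library left out. Leaving out a library cannot make separated groups overlap, so these ranges cannot show whether the separations are fragile. With 1 added in the ratio, Evs-FBMSC against PBS had 3 and Evs-ABPC against Evs-FBMSC 0. SLC16A1, at -0.05 in Evs-ABPC against Evs-FBMSC as deposited, was at 0.04, 0.09 and 0.37 without Evs-ABPC replicate 1, Evs-ABPC replicate 2 or Evs-FBMSC replicate 2, and ranged from -0.30 to 0.37 with 1 library left out. SLC2A3 in Evs-FBMSC against PBS, scaled, was at 0.44 and ranged from -0.06, without Evs-FBMSC replicate 1, to 0.85. The cause of these changes was not tested, beyond the smaller number of libraries. Depth limits VEGFA, ALDOC, PFKM and ADM most, since some PBS libraries hold few reads of them.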
